A study of Mus musculus with 12 samples.

Results

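The Polycomb repressive complex genes examined here were 10 genes taken by name, namely the PRC2 core genes *Ezh1*, *Ezh2*, *Eed* and *Suz12*, the PRC2 accessory genes *Jarid2*, *Mtf2* and *Phf19*, and the PRC1 genes *Cbx2*, *Cbx7* and *Rnf2*. Their Ensembl identifiers were looked up by symbol in the GENCODE M21 annotation, and all 10 were found among the 46517 genes counted. All 10 passed the filter of more than 1 CPM (a read count scaled to a common library size, here with TMM factors) in at least 1 sample, which left 15673 genes to test. RNA-Seq had been performed on *Eomes* EGFP reporter mouse ESCs of the C57BL/6 background, in which EGFP sits in the endogenous *Eomes* gene. The WT group carried the reporter alone, and the *Meteor* KO group carried in addition a CRISPR deletion of *Meteor*, an enhancer with an associated lncRNA upstream of *Eomes*. Each genotype was sampled as undifferentiated ESCs grown on mouse embryonic fibroblast feeders (day 0) and as embryoid bodies, formed in hanging drops, at day 3 of cardiac differentiation, with 3 samples in each of the 4 groups. Individual KO clones were picked in the study, and how many clones these samples represent is not stated in the sources used here, so that the deletion and a property of one clone cannot be told apart. The labels number the replicates of each group but do not say that they were separate cultures, so the p-values measure the spread between these samples, part of which may be technical.

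Polycomb proteins keep developmental genes silent through a pair of chromatin-modifying complexes. PRC2 trimethylates lysine 27 of histone H3 (H3K27me3), with *Ezh1* or *Ezh2* as the methyltransferase, *Suz12* as the scaffold and *Eed* as the subunit that binds the finished mark. The accessory proteins Jarid2, Mtf2 and Phf19 help to bring PRC2 to CpG-rich sites, while the Cbx proteins of canonical PRC1 read H3K27me3 and Rnf2 (RING1B) ubiquitinates histone H2A. In ESCs the complexes cover the promoters of lineage regulators, and Cbx7 is known as the main Cbx protein of ESCs, with Cbx2 gaining in differentiating cells.

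Between 17455927 and 23910943 reads per sample had been counted on genes, so that 1 CPM stood for close to 20 reads, and *Phf19*, the lowest of the members, had 70 to 241 reads per sample. *ENSMUSG00000103968*, a gene annotated at the deleted locus, had 29 to 107 reads in the 6 WT samples and 0 in the 6 KO samples. *Upf3b*, a factor of nonsense-mediated decay, stood at 45.5 to 55.9 CPM in WT and at 0 to 0.661 CPM in KO, so the deletion and the loss of *Upf3b* cannot be told apart in any comparison of the genotypes. The summed level of 4 primitive streak markers (*T*, *Eomes*, *Mixl1*, *Gsc*) at day 3 was 580.8 to 1389.8 CPM in WT and 73.3 to 148.1 CPM in KO, with none of the markers at 0 in any of these 6 samples. WT replicate 3 at day 3 stood apart, with pluripotency markers (6 genes including *Pou5f1* and *Nanog*) summing to 596.5 CPM against 1108.7 and 1119.4 CPM in the other WT samples of that day. Fibroblast markers, which the feeder cells could supply, summed to 68.0 to 302.7 CPM at day 0 and to 33.1 to 74.8 CPM at day 3.

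The order of the members was first read on the per-length scale, in CPM per kb of annotated exon, as a description without a test. In WT cells at day 0 *Mtf2* had the highest level, with 95.6 ± 16.4 CPM per kb (SD, n = 3), followed by *Suz12* at 92.7 ± 8.28 and *Jarid2* at 78.2 ± 13.1, and the samples of neighbours in this order overlapped. *Eed* followed at 58.1 ± 5.52, *Rnf2* at 39.0 ± 2.21, *Cbx7* at 34.6 ± 1.76 and *Ezh2* at 31.9 ± 2.28 CPM per kb. The samples overlapped between *Cbx7* and *Ezh2*, but not between *Eed* and *Rnf2* or between *Rnf2* and *Cbx7*. *Cbx2* at 9.4 ± 2.47, *Ezh1* at 6.15 ± 1.15 and *Phf19* at 2.07 ± 0.649 CPM per kb were the lowest members in every group, with overlap in WT at day 0 between *Cbx2* and *Ezh1* alone. At day 3 *Suz12* led in both genotypes without overlap, at 63.4 ± 3.0 CPM per kb in WT and 64.5 ± 1.74 in KO. *Cbx7* was the seventh of the members in WT at day 3, at 17.9 ± 1.85 CPM per kb beside 17.1 ± 1.73 for *Cbx2*, whereas in KO it was the fourth, at 40.5 ± 1.98 beside 17.0 ± 0.965 for *Cbx2*. In *Meteor* KO cells at day 0 the order of the 10 members was that of WT, with *Rnf2* at 72.8 ± 2.5 CPM per kb.

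**Figure D1:**
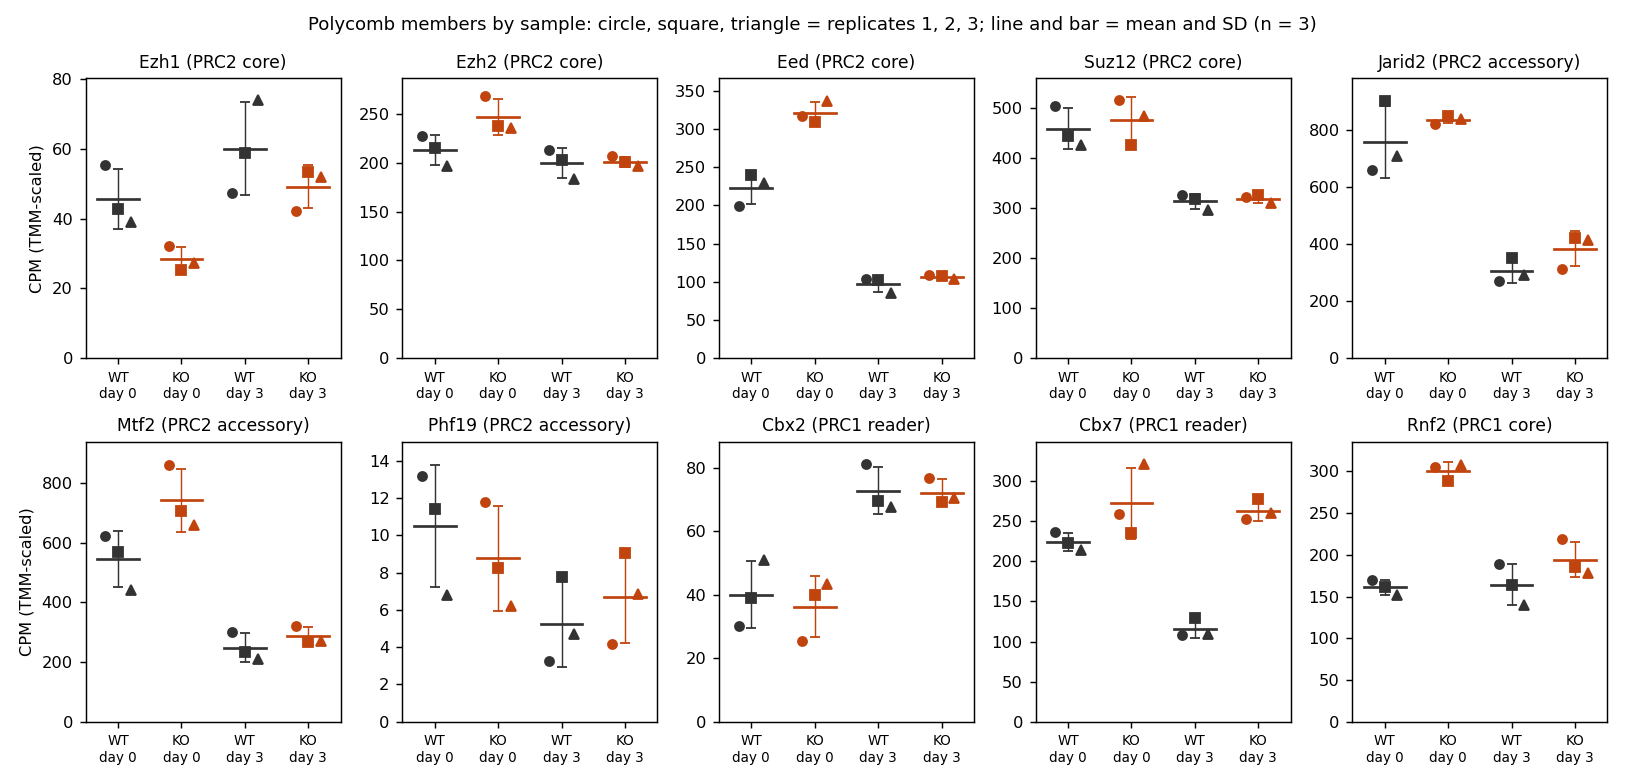
TMM-scaled CPM of the 10 members in each sample, by group (WT in black, *Meteor* KO in orange); symbols are replicates 1, 2 and 3, lines are means and bars are SD (n = 3). *Rnf2* in KO at day 0 sits between 288.8 and 308.0 CPM, above all other groups, and *Cbx7* in WT at day 3 sits between 108.0 and 129.6 CPM, below all other groups.

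The comparison of WT cells at day 3 with day 0 asked how the Polycomb genes move as ESCs leave pluripotency. Of the 7 PRC2 genes 5 fell, led by *Jarid2* (2.48-fold lower at day 3), *Eed* (2.29-fold) and *Mtf2* (2.20-fold). The PRC1 readers moved in opposite directions, *Cbx7* falling 1.94-fold and *Cbx2* rising 1.86-fold. Of the 10 members 7 passed the test (edgeR quasi-likelihood, adjusted p below 0.05), 6 lower and 1 higher at day 3, beside 56.2% of all genes tested, 25.5% lower and 30.7% higher. The median log2 change was -0.75 over the members and 0.073 over all genes tested. All 3 accessory members fell, with a median of -1.13, the call of *Phf19* being lost in 4 of the 6 fits that left out a WT sample. Of the 4 core members 2 fell, *Eed* and *Suz12*, with a median of -0.32. Among the 8 other PRC2 genes, listed further below, 3 were called lower and 1 higher, with a median of -0.19, so the fall of these accessory members does not stand for all PRC2 genes outside the core members. In bulk samples, fewer cells of a type and less RNA per cell cannot be told apart, and the pluripotency markers fell in the same comparison (5 of 6 called lower), from sums of 2615.7 to 3114.4 CPM at day 0 to 596.5 to 1119.4 CPM at day 3. Their part in the result was not tested.

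In *Meteor* KO cells the same comparison gave 8 called members, 6 lower and 2 higher, beside 56.6% of all genes tested, 27.2% lower and 29.4% higher. *Eed* fell by 1.59 on the log2 scale, *Mtf2* by 1.37 and *Jarid2* by 1.14, and *Rnf2*, *Suz12* and *Ezh2* were lower as well, while *Cbx2* and *Ezh1* rose. All 4 core genes passed the test in KO, 3 of them lower, with a median of -0.43, and 2 of the 3 accessory genes did, with a median of -1.14. Among the 8 other PRC2 genes 4 were called lower and 1 higher, with a median of -0.3. The members' median was -0.49, and that of all genes tested was 0.028. Pluripotency markers fell here too (6 of 6), from sums of 3465.8 to 3851.0 CPM to sums of 1095.6 to 1187.1 CPM. Their part was not tested.

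**Figure D2:**
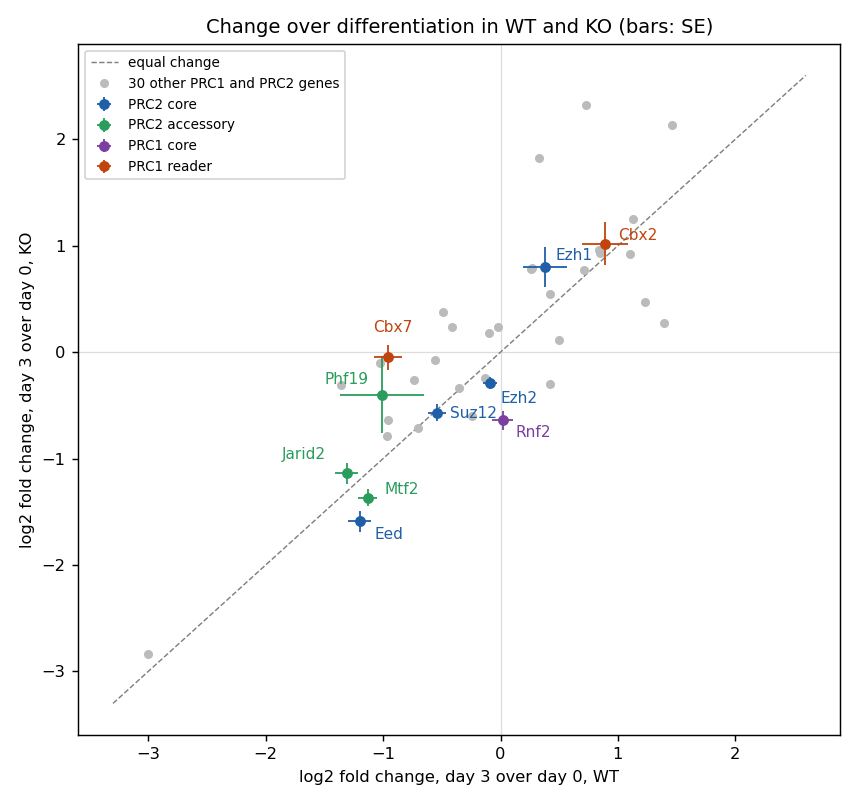
Log2 fold change from day 0 to day 3 in WT (horizontal axis) and KO (vertical axis) for the 10 members, coloured by class with SE bars from edgeR, and for 30 other PRC1 and PRC2 genes in grey; the dashed line marks equal change. *Cbx7* lies above the line (-0.96 in WT, -0.05 in KO) and *Rnf2* below it (0.02 in WT, -0.64 in KO), while *Suz12* lies on it (-0.54 and -0.57).

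The comparison of *Meteor* KO with WT cells at day 0 asked whether undifferentiated cells already differ. *Rnf2* was 1.87-fold higher in KO, *Eed* 1.44-fold and *Mtf2* 1.36-fold, *Ezh2* was 1.16-fold higher, and *Ezh1* was 1.62-fold lower. These 5 of 10 members passed the test, 4 higher and 1 lower, beside 20.4% of all genes tested, 9.56% higher and 10.9% lower. The count of 5 fell to 3 without WT replicate 1, without WT replicate 2 or without KO replicate 3. Over all 15673 genes tested these fits called 2837, 2336 and 1783, against 3201 with all samples. Without the replicate block the count was also 3, where 16.8% of all genes were called. With the replicate block set within each day, 6 members passed beside 34.8% of all genes, *Cbx7* (0.27, adjusted p = 0.0494) being the addition. Same-numbered WT and KO samples varied together within a day and not across days, a pairing that this block follows and that of the main fit does not. Of the markers that moved with the genotype at this day, the primitive endoderm list (*Gata6*, *Sox7*, *Dab2*, *Lama1*) summed to 78.5 to 137.5 CPM in WT and 236.5 to 292.7 CPM in KO, with 1 of 4 genes called. That gene was *Lama1*, which made up most of the sums, with means of 80.7 CPM in WT and 244.7 CPM in KO. *Gata6* (0.26, adjusted p = 0.636) and *Sox7* (2.45, adjusted p = 0.054) were not called, and *Dab2* had the other sign (-0.42, adjusted p = 0.556). The neuroectoderm list (*Sox1*, *Pax6*, *Otx2*) summed to 46.5 to 64.4 CPM in WT and 8.82 to 17.6 CPM in KO. *Otx2* and *Pax6*, 2 of the 3, were called lower, and *Sox1* had the other sign (1.26, adjusted p = 0.127). The pluripotency markers summed to 2615.7 to 3114.4 CPM in WT and 3465.8 to 3851.0 CPM in KO without overlap, with 1 of 6 called, *Esrrb*, which was higher. The streak list summed to 39.1 to 144.4 CPM in WT and 50.9 to 66.9 CPM in KO, with 1 of 4 called, *T*, which was lower. No gene of these lists was at 0 in any sample, and their part in the members' differences was not tested.

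The same comparison was made at day 3. *Cbx7* was 2.27-fold higher in *Meteor* KO cells and *Jarid2* 1.26-fold higher, and no member was called lower. This made 2 of 10 members called beside 30.9% of all genes tested, 14.3% higher and 16.7% lower. The count was 1 without WT replicate 3, KO replicate 2 or KO replicate 3 of that day. Over all 15673 genes tested these fits called 3392, 3163 and 2907, against 4846 with all samples. Without the replicate block the count was also 1, beside 26.4% of all genes. DESeq2 called 4 members beside 34.0% of all genes, and only the samples of that day gave 5 beside 44.1%, as many as the samples of day 0 alone gave at day 0 (5 beside 34.8%). With the block within each day it was 5 beside 46.9% of all genes, the additions being *Rnf2* (0.25, adjusted p = 0.0101), *Mtf2* (0.21, adjusted p = 0.0353) and *Ezh1* (-0.27, adjusted p = 0.0353). Median log2 differences of KO from WT were 0.13 for the core genes at day 0 and 0.02 at day 3, and 0.16 and 0.33 for the accessory genes, beside -0.009 and -0.002 over all genes tested. Both comparisons of the genotypes share samples with the comparisons of the days. The streak markers were all 4 lower in KO at day 3. Of the 6 pluripotency markers 3 were called higher (*Sox2*, *Zfp42* and *Esrrb*), *Nanog* (-0.64, adjusted p = 0.107) and *Klf4* (-0.58, adjusted p = 0.182) had the other sign, and the sums overlapped (596.5 to 1119.4 CPM in WT and 1095.6 to 1187.1 CPM in KO). The neuroectoderm markers summed to 153.2 to 175.4 CPM in WT and 239.9 to 270.1 CPM in KO, with 2 of 3 called higher, *Sox1* and *Pax6*. *Otx2* made up most of the sums, with means of 165.6 CPM in WT and 246.2 CPM in KO, and was not called (0.58, adjusted p = 0.0537). The fibroblast markers summed to 33.1 to 54.3 CPM in WT and 35.5 to 74.8 CPM in KO, which overlapped. Of the 6 tested 3 were called higher (*Dcn*, *Col3a1* and *Thy1*). The other 3, *Col1a1* (-0.31, adjusted p = 0.566), *Col1a2* (-0.46, adjusted p = 0.356) and *Postn* (-0.57, adjusted p = 0.396), had the other sign. The primitive endoderm list summed to 58.3 to 194.9 CPM in WT and 41.1 to 76.1 CPM in KO, which overlapped. Of its 4 genes 1 was called, *Gata6*, which was lower in KO (-4.62, adjusted p = 4.69e-05). *Sox7* (-1.65, adjusted p = 0.186), *Lama1* (-0.13, adjusted p = 0.837) and *Dab2* (0.06, adjusted p = 0.93) were not called. The part of these lists in the members' differences was not tested.

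**Figure D3:**
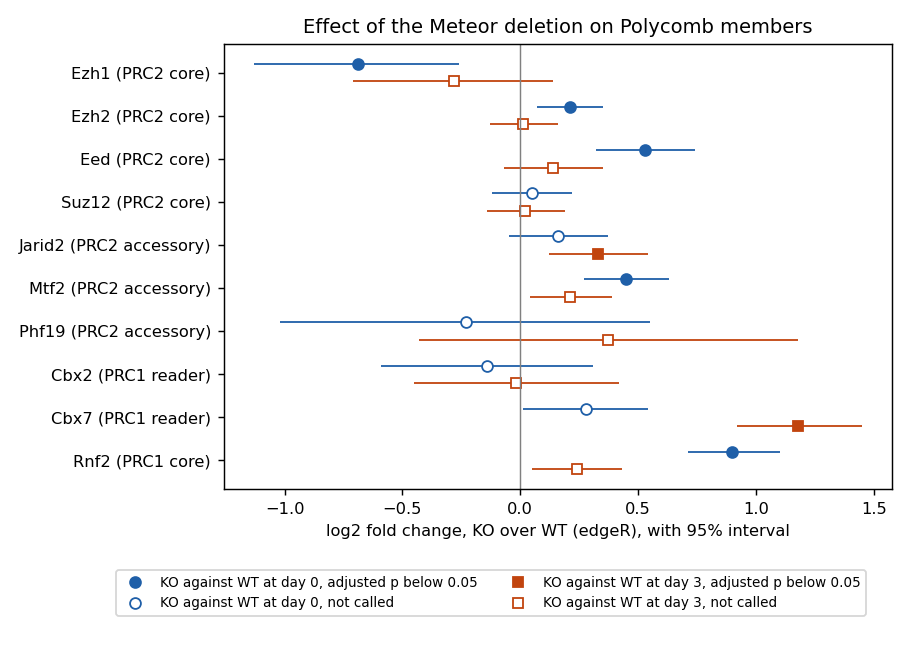
Log2 fold change of KO over WT for each member at day 0 (circles) and day 3 (squares), with 95% intervals from edgeR; filled symbols passed the test at an adjusted p below 0.05. *Rnf2* moves from 0.90 at day 0 to 0.24 at day 3 and *Cbx7* from 0.28 to 1.18, while *Suz12* lies at 0.05 and 0.02.

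Whether the change between the days itself differed between the genotypes was tested with the interaction term of the same fit. It was called for 2 of 10 members, *Cbx7* (0.91) and *Rnf2* (-0.66), beside 15.5% of all genes tested, 8.21% higher and 7.34% lower, and for none of the 7 PRC2 members. With the block within each day 5 members passed, beside 31.2% of all genes, the additions being *Eed* (-0.39, adjusted p = 0.0172), *Ezh1* (0.41, adjusted p = 0.0402) and *Phf19* (0.62, adjusted p = 0.0449).

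Among the methyltransferases of PRC2, *Ezh2*, the form of dividing cells, moved little. It measured 227.2, 214.5 and 196.8 CPM in WT and 268.1, 237.2 and 235.0 CPM in KO at day 0, and 212.5, 202.9 and 183.0 CPM in WT and 206.6, 200.2 and 196.5 CPM in KO at day 3. The KO samples of day 0 were the highest and did not overlap the WT samples of that day, while the genotypes overlapped at day 3. The difference at day 0 was 0.21 ± 0.06 (log2, SE, adjusted p = 0.0392, edgeR). It lost the call without any single one of the 6 samples (0.19 to 0.25, adjusted p 0.0656 to 0.147), without the block (adjusted p = 0.124) and without the filter on low counts (adjusted p = 0.155). The difference at day 3 was 0.01, with a 95% interval of -0.13 to 0.16. In KO *Ezh2* fell between the days by 0.29 ± 0.06 (adjusted p = 0.00283), and in WT the change was -0.09 (adjusted p = 0.231), with the difference between those changes not called (-0.20, adjusted p = 0.162).

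*Ezh1*, the paralog with the weaker methyltransferase activity, was the one member called lower in KO at day 0. WT samples at day 0 measured 55.4, 42.8 and 38.9 CPM and KO samples 32.2, 25.3 and 27.3 CPM. All 3 KO samples lay below all WT samples. The difference was -0.69 ± 0.19 (95% interval -1.13 to -0.26, adjusted p = 0.0307), and the call was lost without WT replicate 1 (-0.47, adjusted p = 0.123), WT replicate 2 (-0.73, adjusted p = 0.0642), KO replicate 2 (-0.62, adjusted p = 0.123) or KO replicate 3 (-0.64, adjusted p = 0.114). At day 3 the values were 47.3, 58.6 and 73.8 CPM in WT and 42.1, 53.4 and 51.9 CPM in KO, which overlapped (-0.28, adjusted p = 0.287). *Ezh1* rose between the days in KO by 0.80 ± 0.19 (adjusted p = 0.00548). In WT the change was 0.38 (adjusted p = 0.112), which passed without WT day 0 replicate 1 or WT day 3 replicate 1 (0.59 each, adjusted p = 0.0266 and 0.0244).

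*Eed*, the reader subunit of PRC2, showed the clearest pattern among the core genes. It measured 198.9, 239.7 and 229.0 CPM in WT and 317.3, 309.1 and 335.9 CPM in KO at day 0. At day 3 it measured 103.5, 102.0 and 85.8 CPM in WT and 109.5, 107.9 and 103.1 CPM in KO. Every KO sample of day 0 lay above every WT sample, whereas at day 3 the genotypes overlapped and both lay below day 0. The difference at day 0 was 0.53 ± 0.09 (95% interval 0.32 to 0.74, adjusted p = 0.00415), and it stayed called in all 15 settings tried, at 0.44 to 0.59. From day 0 to day 3 *Eed* fell by 1.20 ± 0.10 in WT (adjusted p = 1.02e-05) and by 1.59 ± 0.10 in KO (adjusted p = 1.20e-06). The difference between those changes, -0.39 ± 0.13 (adjusted p = 0.0765), passed with the block within each day, as given above, and without WT day 3 replicate 3 (-0.48, adjusted p = 0.0356).

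*Suz12*, the scaffold on which PRC2 assembles, fell between the days in both genotypes. WT samples at day 0 measured 504.4, 443.9 and 426.3 CPM, and KO samples 515.7, 425.0 and 484.0 CPM. At day 3 the values were 325.2, 318.9 and 296.9 CPM in WT and 321.7, 325.6 and 309.2 CPM in KO. The genotypes overlapped on both days, and the days did not overlap in either genotype. KO differed from WT by 0.05 (95% interval -0.12 to 0.22) at day 0 and by 0.02 (-0.14 to 0.19) at day 3, so that a difference of more than 0.22 in size lay outside both intervals. The fall between the days was 0.54 ± 0.08 in WT (adjusted p = 2.47e-04) and 0.57 ± 0.08 in KO (adjusted p = 1.43e-04).

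Of the accessory genes, *Jarid2*, which helps PRC2 to bind at target promoters, fell most in WT. It measured 662.9, 903.8 and 711.6 CPM in WT and 823.7, 849.9 and 839.1 CPM in KO at day 0. At day 3 it measured 272.8, 350.8 and 292.1 CPM in WT and 313.6, 423.4 and 415.5 CPM in KO. The days did not overlap in either genotype, and the genotypes overlapped on each day, although at day 3 each KO sample was above the WT sample of its own number. Between the days *Jarid2* fell by 1.31 ± 0.10 in WT (adjusted p = 5.89e-06) and by 1.14 ± 0.10 in KO (adjusted p = 7.75e-06). At day 3 KO exceeded WT by 0.33 ± 0.09 (adjusted p = 0.0252), and at day 0 the difference was 0.16 (adjusted p = 0.279). The day 3 call was lost without the block (adjusted p = 0.104), and without WT replicate 1 (0.33, adjusted p = 0.0559), WT replicate 3 (0.29, adjusted p = 0.0922), KO replicate 2 (0.34, adjusted p = 0.072) or KO replicate 3 (0.28, adjusted p = 0.0902).

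*Mtf2*, a Polycomb-like protein that binds unmethylated CpG-rich DNA, measured 623.9, 569.3 and 441.6 CPM in WT and 860.4, 705.0 and 660.4 CPM in KO at day 0. At day 3 the values were 301.2, 234.8 and 210.3 CPM in WT and 321.4, 266.1 and 270.4 CPM in KO. KO lay wholly above WT at day 0 and overlapped it at day 3. The difference at day 0 was 0.45 ± 0.08 (adjusted p = 0.00398) and was not called without the block (adjusted p = 0.0776). Replicate 1 was the highest sample of each genotype. Between the days *Mtf2* fell by 1.13 ± 0.08 in WT (adjusted p = 5.03e-06) and by 1.37 ± 0.08 in KO (adjusted p = 9.61e-07). The KO difference at day 3 was 0.21 (95% interval 0.04 to 0.39, adjusted p = 0.0665). *Tmed5*, whose exons on the opposite strand cover 395 of the 5698 exonic bases of *Mtf2*, stood at 59.7 ± 10.9 CPM in WT and 47.5 ± 5.84 CPM in KO at day 0 (-0.33, adjusted p = 0.235).

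*Phf19*, the other Polycomb-like gene, was the lowest of the members and varied widely between replicates. It measured 13.2, 11.4 and 6.82 CPM in WT and 11.8, 8.27 and 6.23 CPM in KO at day 0, and 3.26, 7.75 and 4.72 CPM in WT and 4.15, 9.04 and 6.87 CPM in KO at day 3. All neighbouring groups overlapped. The change in WT was -1.01 ± 0.36 (adjusted p = 0.0363), a call lost without WT day 0 replicate 1 (-0.71, adjusted p = 0.142) or replicate 2 (-1.12, adjusted p = 0.0635), without WT day 3 replicate 1 (-0.68, adjusted p = 0.149) or replicate 3 (-1.11, adjusted p = 0.0537), and with only the 6 WT samples (-1.07, adjusted p = 0.0577). In KO the change was -0.40, with a 95% interval of -1.20 to 0.40.

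Among the PRC1 genes, *Cbx7* showed the largest difference between the genotypes at day 3. WT samples measured 236.4, 223.5 and 213.6 CPM at day 0 and 108.0, 129.6 and 109.8 CPM at day 3. KO samples measured 259.2, 235.8 and 321.6 CPM at day 0 and 252.2, 277.2 and 259.7 CPM at day 3. All KO samples of day 3 lay above all WT samples of day 3 and above the range of WT cells at day 0, and the genotypes overlapped at day 0. The difference at day 3 was 1.18 ± 0.12 (95% interval 0.92 to 1.45, adjusted p = 1.60e-04), with replicate-matched differences of 1.22, 1.10 and 1.24, and it was called in all 15 settings tried, at 1.12 to 1.29. *Cbx7* fell by 0.96 ± 0.12 in WT (adjusted p = 1.24e-04), and in KO the change was -0.05 (95% interval -0.31 to 0.21, adjusted p = 0.748). Those changes differed by 0.91 ± 0.17 (95% interval 0.54 to 1.28, adjusted p = 0.00669), a difference called in all 20 settings. At day 0 the difference of KO from WT was 0.28 (adjusted p = 0.13), and without KO replicate 2 it was 0.41 (adjusted p = 0.0476). An exon of *Apobec3* on the opposite strand covers 100 of the 6487 exonic bases of *Cbx7*. The strand setting of the counting is not given in the sources used here. *Apobec3* stood at 56.0 ± 11.8 CPM in WT and 70.3 ± 0.513 CPM in KO at day 3 (0.33, adjusted p = 0.0815).

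*Cbx2*, the reader that gains in differentiating cells, rose between the days in both genotypes. It measured 30.1, 38.9 and 51.0 CPM in WT and 25.4, 40.0 and 43.4 CPM in KO at day 0, and 81.2, 69.6 and 67.5 CPM in WT and 76.9, 69.3 and 70.5 CPM in KO at day 3. Every day 3 sample lay above every day 0 sample. It rose by 0.89 ± 0.20 in WT (adjusted p = 0.0039) and by 1.02 ± 0.20 in KO (adjusted p = 0.00169). The difference of KO from WT at day 3 had a 95% interval of -0.45 to 0.42.

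*Rnf2*, the catalytic subunit of PRC1, was the member that differed most at day 0. WT samples measured 169.9, 161.4 and 151.7 CPM and KO samples 305.1, 288.8 and 308.0 CPM at day 0. At day 3 the values were 189.4, 163.8 and 139.8 CPM in WT and 218.5, 185.3 and 178.8 CPM in KO. All KO samples of day 0 lay above all samples of the other groups, and at day 3 the genotypes overlapped, with each KO sample above the WT sample of its number. The difference at day 0 was 0.90 ± 0.09 (95% interval 0.71 to 1.10, adjusted p = 2.45e-04), called in all 15 settings at 0.81 to 0.97. At day 3 it was 0.24 ± 0.09 (adjusted p = 0.0539), which passed with the block within each day, with RLE scaling (0.27, adjusted p = 0.0395), with DESeq2 (0.27, adjusted p = 0.0255), with limma-voom (0.25, adjusted p = 0.0499), with only the samples of that day (0.25, adjusted p = 0.0196) and without WT day 3 replicate 1 (0.31, adjusted p = 0.0413). *Rnf2* fell by 0.64 ± 0.09 in KO (adjusted p = 1.49e-04), and in WT the change was 0.02 (95% interval -0.17 to 0.21). The changes differed by -0.66 ± 0.12 (95% interval -0.93 to -0.39, adjusted p = 0.00651), called in all 20 settings. *Trmt1l*, whose exons on the opposite strand cover 158 of the 4127 exonic bases of *Rnf2*, was also higher in KO at day 0 (0.54, adjusted p = 0.00961) and at day 3 (0.49, adjusted p = 0.0108). Its level at day 0 was 53.8 ± 10.3 CPM in WT and 78.7 ± 16.9 CPM in KO, and its part in the counts of *Rnf2* was not tested.

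Paralogs that can take the same place in a complex were compared as shares of their pair on the per-length scale, so that library scaling drops out. *Ezh1* made up 16.1% ± 1.62 of *Ezh1* plus *Ezh2* in WT and 9.31% ± 0.514 in KO at day 0, and 21.3% ± 5.0 in WT and 18.0% ± 2.17 in KO at day 3 (SD, n = 3). All KO samples of day 0 (8.74% to 9.74%) lay below all WT samples (15.1% to 17.9%), with an exact permutation p of 0.1 (two-sided), the smallest that 3 against 3 samples allow. *Cbx7* made up 78.7% ± 5.22 of *Cbx2* plus *Cbx7* in WT and 83.1% ± 3.79 in KO at day 0, which overlapped. At day 3 the share was 51.1% ± 4.22 in WT and 70.5% ± 2.08 in KO, with sample ranges of 46.6% to 55.0% and 68.3% to 72.4% (exact permutation p of 0.1, two-sided). The fall of the *Cbx7* share between the days separated the samples in WT and in KO (exact permutation p of 0.1 each). This family held 8 such tests, none of which could pass 0.05. The 3 accessory genes together held 48.1% ± 2.47 of the per-length sum of the 7 PRC2 members in WT and 49.7% ± 1.86 in KO at day 0, and 37.5% ± 1.15 in WT and 41.4% ± 0.704 in KO at day 3, given as a description.

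**Figure D4:**
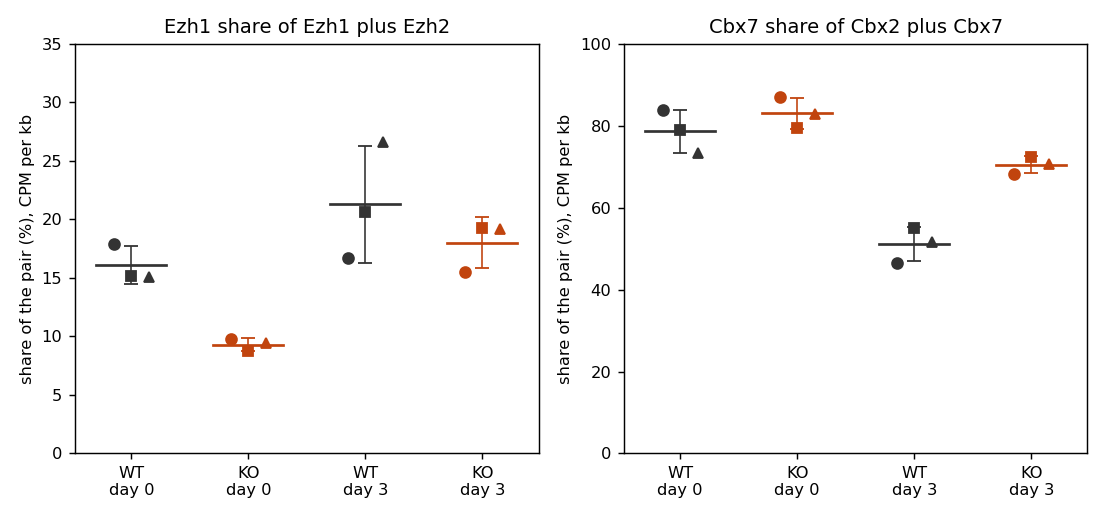
Share (%) of *Ezh1* in the summed per-length level of *Ezh1* plus *Ezh2* (left) and of *Cbx7* in that of *Cbx2* plus *Cbx7* (right), by sample and group; symbols are replicates, lines are means and bars SD (n = 3). The *Cbx7* share at day 3 runs from 46.6% to 55.0% in WT and from 68.3% to 72.4% in KO.

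The promoters of 4 members are shown, those of *Cbx7* and *Rnf2* because their change between the days differed between the genotypes, and those of *Ezh2* and *Suz12* because they hold a match to an E2F word. Of the members 9 were found in the RefSeq promoter table (GRCm38.p6, 250 bases before to 50 after the transcript start). The words searched on both strands were TTTGGCGC, TTTCCCGC, TTTCGCGC and TTTGCCGC for E2F, which share their first letters, and ATGCAAAT for the octamer bound by POU factors. An E2F word lay in 3 of the 9 (*Ezh2*, *Suz12*, *Phf19*), beside 2.26% of 32851 promoters, and the octamer in 0 of 9, beside 1.74%, so no matches overlapped. The 4 promoters below held 30 to 41 CG pairs, beside a median of 7 over all promoters. The *Phf19* promoter, which held 38, is not shown. Each E2F word holds a CG pair, and the share over all promoters was not matched for CG pairs, so no enrichment is read from it. Capitals mark the E2F match, given as a match of letters alone. The RefSeq starts of *Cbx7* and *Ezh2* lie inside the span of the gene in GENCODE M21, given after the sequences.
Cbx7 promoter (chr15:79932597-79932896, minus strand): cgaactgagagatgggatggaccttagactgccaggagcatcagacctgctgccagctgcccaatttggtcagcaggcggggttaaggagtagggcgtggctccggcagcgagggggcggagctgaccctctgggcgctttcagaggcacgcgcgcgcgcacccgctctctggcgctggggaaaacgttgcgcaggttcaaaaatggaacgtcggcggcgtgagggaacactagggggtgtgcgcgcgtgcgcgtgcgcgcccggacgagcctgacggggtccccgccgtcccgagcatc
Rnf2 promoter (chr1:151500942-151501241, minus strand): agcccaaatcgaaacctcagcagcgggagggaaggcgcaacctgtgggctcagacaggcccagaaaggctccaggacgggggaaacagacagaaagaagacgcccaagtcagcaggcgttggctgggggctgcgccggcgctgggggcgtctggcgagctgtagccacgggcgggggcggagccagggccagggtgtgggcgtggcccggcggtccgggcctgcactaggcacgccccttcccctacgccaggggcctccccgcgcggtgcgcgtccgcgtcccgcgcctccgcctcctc
Ezh2 promoter (chr6:47594981-47595280, minus strand): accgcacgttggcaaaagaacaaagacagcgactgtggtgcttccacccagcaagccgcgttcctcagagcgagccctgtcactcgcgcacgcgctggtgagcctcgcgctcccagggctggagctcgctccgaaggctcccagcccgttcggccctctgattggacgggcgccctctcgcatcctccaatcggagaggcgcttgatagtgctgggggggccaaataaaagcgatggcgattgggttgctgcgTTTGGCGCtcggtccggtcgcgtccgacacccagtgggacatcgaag
Suz12 promoter (chr11:79992856-79993155, plus strand): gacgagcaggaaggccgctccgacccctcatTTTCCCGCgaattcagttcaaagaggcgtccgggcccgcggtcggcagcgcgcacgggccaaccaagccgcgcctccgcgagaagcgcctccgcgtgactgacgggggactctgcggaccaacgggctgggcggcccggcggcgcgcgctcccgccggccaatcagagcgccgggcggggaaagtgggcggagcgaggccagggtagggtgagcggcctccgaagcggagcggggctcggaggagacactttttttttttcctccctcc

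In GRCm38, *Cbx7* (ENSMUSG00000053411) spans bases 79915807 to 79971119 of chromosome 15 and *Rnf2* (ENSMUSG00000026484) bases 151458004 to 151500955 of chromosome 1, both on the minus strand. *Eed* (ENSMUSG00000030619) spans bases 89954654 to 89980983 of chromosome 7 and *Ezh2* (ENSMUSG00000029687) bases 47530139 to 47595341 of chromosome 6, both on the minus strand. *Ezh1*, *Suz12* and *Cbx2* all lie on chromosome 11, where *Ezh1* (ENSMUSG00000006920) spans bases 101191115 to 101226463 on the minus strand and *Suz12* (ENSMUSG00000017548) bases 79993106 to 80034123 on the plus strand.

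In the other genes of the complexes, from a list of 8 PRC2 and 22 PRC1 genes, all of which were tested, 5 of 30 differed between the genotypes at day 0 (2 higher and 3 lower in KO), beside 20.4% of all genes tested, and 13 of 30 at day 3 (11 higher and 2 lower), beside 30.9%. *Bmi1*, the partner of the RING proteins in one form of canonical PRC1, measured 6.12 to 8.04 CPM in WT and 14.9 to 18.2 CPM in KO at day 0, which was 1.22 ± 0.16 higher on the log2 scale (adjusted p = 9.57e-04). *Bcor*, a subunit of a variant PRC1, was 1.06 lower in KO at day 0 (adjusted p = 3.41e-04), with samples of 58.1 to 118.2 CPM in WT and 30.8 to 55.0 CPM in KO. The largest difference at day 3 was that of *Ezhip*, an inhibitor of EZH2, at 0.619 to 1.12 CPM in WT and 1.35 to 2.56 CPM in KO (1.29, adjusted p = 0.044), values that rest on 13 to 47 reads. The call was lost in 5 of the 6 fits that left out a sample of that day, all but that without KO replicate 1 (0.93 to 1.34, adjusted p 0.0903 to 0.177). Named after their values were seen, the remaining genes called at day 0 were *Usp7* (higher), *Auts2* and *Scmh1* (lower), and the genes lower at day 3 were *Phc2* and *Rbbp7*. The call of *Scmh1* was lost without WT replicate 3, KO replicate 2 or KO replicate 3 of day 0 (-0.72 to -0.61, adjusted p 0.0545 to 0.0626), and that of *Phc2* without KO replicate 2 or 3 of day 3 (-0.77 and -0.74, adjusted p = 0.0588 and 0.0683). The medians over the 30 genes were -0.03 at day 0 and 0.16 at day 3.

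Between the days 20 of these 30 genes changed in WT (10 higher, 10 lower), beside 56.2% of all genes tested, and 19 in KO (11 higher, 8 lower), beside 56.6%. *Epop*, an accessory PRC2 gene of ESCs, fell by 3.00 in WT (adjusted p = 1.52e-06) and by 2.84 in KO (adjusted p = 9.12e-07), from means of 594.2 and 586.5 CPM to 74.2 and 79.9 CPM. *Ezhip* fell by 1.36 in WT (adjusted p = 0.0202), a call lost without replicate 1 of day 0 or replicate 1 or 2 of day 3 (-1.39 to -1.09, adjusted p 0.054 to 0.0906). Of the PRC1 genes *Bcorl1* (1.46), *Bmi1* (1.39), *Phc2* (1.23), *Yaf2* (1.13) and *Ring1* (1.10) rose in WT, and *Phc1* fell by 1.03. In KO *Bcor* (2.32), *Bcorl1* (2.13), *Auts2* (1.82) and *Yaf2* (1.25) rose. The interaction was called for 8 of 30 genes, beside 15.5% of all genes, among them *Bcor* (1.59, adjusted p = 4.91e-04), *Auts2* (1.48, adjusted p = 0.00358) and *Bmi1* (-1.12, adjusted p = 0.00895).

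As a description over the 12 samples, which form 4 groups and so share their group differences, the gene most like each member in log2 CPM was sought among the 40 Polycomb genes. *Cbx7* was most like *Phc1*, another canonical PRC1 gene (Pearson r = 0.849). *Phc1* measured 283.7 to 363.0 CPM in WT and 505.0 to 581.8 CPM in KO at day 3 without overlap. *Rnf2* was most like *Ezh2* (r = 0.828) and *Ezh2* most like *Mtf2* (r = 0.88). *Eed* and *Suz12* were also most like *Mtf2* (r = 0.958 and 0.955), and *Mtf2* most like *Rybp* (r = 0.971). *Jarid2* was paired with *Epop* (r = 0.958), *Cbx2* with *Ring1* (r = 0.958), *Ezh1* with *Auts2* (r = 0.796) and *Phf19* with *Ezhip* (r = 0.734).

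Enzymes that oppose Polycomb, namely the H3K27 demethylases, the BAP1 deubiquitinase with its ASXL partners and the KMT2 methyltransferases, were counted for comparison. Of 10 genes 1 was higher in KO at day 0 (*Kmt2c*), beside 20.4% of all genes tested. At day 3, 4 were higher (*Asxl1*, *Asxl2*, *Kmt2b*, *Kdm6a*) and 1 lower, *Asxl3* (-1.36, adjusted p = 0.00359), beside 30.9% of all genes, and the call of *Kdm6a* was lost without WT replicate 1 or KO replicate 3 (0.26 and 0.27, adjusted p = 0.0595 and 0.0608). The higher ones are named after their values were seen. *Kmt2c* fell between the days by 1.13 in WT (adjusted p = 4.45e-04) and by 1.56 in KO (adjusted p = 4.86e-05), among 6 of 10 called lower in each genotype, beside 25.5% and 27.2% of all genes. Some of these calls, named after their values were seen, rested on single samples. In KO that of *Asxl2* was lost without any single KO sample (adjusted p 0.0572 to 0.168). With 1 KO sample left out, *Kmt2d* kept its call only without day 0 replicate 1. *Kmt2b* kept it only without replicate 2 of day 0 or of day 3. In WT *Kmt2a* kept its call only without day 0 replicate 3.

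Genes known as Polycomb targets in ESCs were described from a list of 30, which shares *T*, *Eomes*, *Gsc*, *Pax6* and *Gata6* with the marker lists above. Of these 23 passed the filter on low values, 7 of them (among them *Hoxb1*, *Sox17* and *Isl1*) through WT samples alone, so that their direction is partly fixed by the filter and the values are given as a description. At day 0 the genes called lower in KO with a log2 difference over 1 were *T* (-5.49), *Hoxb1* (-3.73), *Fgf5* (-3.34), *Msx1* (-1.95) and *Pax6* (-1.65). WT replicate 3 held the highest values of *T* (4.64, 6.42 and 77.4 CPM) and *Msx1* (1.09, 1.04 and 8.51 CPM), beside 0.331 to 0.919 and 0.496 to 0.868 CPM in KO, and also that of *Fgf5*, which stood at 2.51 and 3.44 CPM in the other WT samples and at 0.386 to 1.07 CPM in KO. Without that sample *T* was at -3.13 (adjusted p = 0.0639), *Msx1* at -1.05 (adjusted p = 0.17) and *Fgf5* at -2.09 (adjusted p = 0.0418). Of the 5 genes *Hoxb1* alone kept its call without any single sample. It is one of those that passed the filter through WT samples alone, so that this does not measure the firmness of its direction.

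At day 3 the differences of the targets were led by *Evx1* (-6.81), *T* (-6.71), *Sox17* (-5.95), *Bmp2* (-5.91), *Gsc* (-5.43) and *Hoxb1* (-5.24), all lower in KO. *Sox17* and *Hoxb1* are among those that passed the filter through WT samples alone. *Evx1* measured 41.6, 40.4 and 35.7 CPM in WT and 0.75, 0 and 0.375 CPM in KO. *Sox17* (14.8, 11.2 and 43.2 CPM in WT) and *Bmp2* (8.53, 9.0 and 54.0 CPM in WT) were highest in WT replicate 3, and stood at -5.01 and -5.20 without it, while *T* (-7.42) and *Gsc* (-6.09) were further from 0. *Pax6* was higher in KO (1.58, adjusted p = 0.0198), a call lost without WT replicate 1, WT replicate 3, KO replicate 2 or KO replicate 3 (1.29 to 1.66, adjusted p 0.0511 to 0.0703). The change between the days differed between the genotypes for 8 of the 23, beside 15.5% of all genes. Of these 7 had the lower value in KO, among them *Sox17*, whose direction is partly fixed by the filter. For *T* the difference between the changes was not called (-1.22, adjusted p = 0.751).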

How the data were processed

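Polyadenylated RNA of 12 samples (WT and *Meteor* KO, day 0 and day 3, 3 replicates each) was sequenced with single reads from a stranded kit. According to the submitters' processing notes and the methods, the authors used Cutadapt 1.3 for trimming, STAR 2.4.2a for alignment to GRCm38 and HTSeq 0.6.1 for counting on Ensembl genes. What they deposited were raw counts per gene. The strand setting of the counting is not given in the sources used here. Alignments to several places, which gene counts omit, made up 36.52% to 44.09% of those listed, and rows that name no gene held 46.3% to 50.97% and were left out of library sizes and tests.

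Genes above 1 CPM in at least 1 sample (15673 of 46517) were fitted with edgeR 4.0.16 (quasi-likelihood test, TMM scaling, R 4.3.3), with all 12 samples in 1 fit, 1 group for every combination of genotype and day, and a replicate block taken from the numbers in the titles, in place of the batch factor that the methods mention. Adjustment was by Benjamini-Hochberg over all genes tested, and a call was an adjusted p below 0.05. SE were derived from the log2 fold change and the F statistic. Same-numbered WT and KO samples deviated together from their group means within day 0 (r = 0.65, 0.428 and 0.485) and within day 3 (r = 0.622, 0.401 and 0.261), and not across days (r = -0.177 to 0.068). The block of the main fit is shared by the days and so does not follow this pairing. The labels give the replicate numbers, and a block within each day was run as an alternative. Replicates differed by more than counting noise. Others were no block, RLE scaling, no filter, 10 counts in every sample, DESeq2 1.42.0, limma-voom (limma 3.58.1), only the samples of a day or genotype, each sample left out, and shares of CPM without length. CPM per kb used the union of GENCODE M21 exons, in which 46005 of 46517 identifiers were found. Exact permutation tests used scipy 1.17.1. The fit was tested on simulated data.

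The members, gene lists and tests were chosen with earlier results of these data known. Text names all members, the other listed genes called with a log2 change over 1 (at most 6 per list and comparison), and the gene most like each member. Isoforms were not analysed here.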

Additional observations from a re-analysis of the deposited data

Results flagged for a closer look

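The change of *Cbx7* from day 0 to day 3 differed between the genotypes by an interaction test, by 0.91 on the log2 scale (KO minus WT, edgeR, adjusted p = 0.00669). It was -0.96 in WT and -0.05 in KO, and the difference ran from 0.78 to 1.07 over the 20 settings tried (adjusted p 3.34e-05 to 0.0238). The change of *Rnf2* differed in the other direction, by -0.66 (adjusted p = 0.00651), with 0.02 in WT and -0.64 in KO, and ran from -0.74 to -0.57 over the settings (adjusted p 9.90e-05 to 0.0313). No explanation was tested for either. The gap test for a single outlying sample was not run, since it needs groups of 4 or more, and each sample was left out in turn instead.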

How the results depend on the processing

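The members called between the genotypes at day 0 numbered 5, and 3 with no replicate block. At day 3 they numbered 2, and 1 with no replicate block, 4 with DESeq2, 5 with the replicate block within each day and 5 with only the samples of that day. The interaction was called for 2 members, and for 5 with the block within each day. Leaving out 1 sample gave 3 to 4 members at day 0 and 1 to 2 at day 3. Those fits called 1712 to 2837 of all genes at day 0 and 2907 to 4266 at day 3, also fewer than with all samples. Besides the calls named beside the genes, the replicate block within each day changed no other call. Over all genes it called 5447 against 3201 at day 0, 7347 against 4846 at day 3 and 4889 against 2436 for the interaction, and the 6 samples of day 0 alone called 5459.

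Values near 0 changed sign. *Cbx2* at day 3 was 0.01 with RLE scaling and with DESeq2 (-0.02 in the report), the *Rnf2* change in WT was -0.03 with RLE scaling, DESeq2 and WT samples alone (0.02 in the report), and *Ezh2* at day 3 was -0.01 with at least 10 counts in every sample (0.01 in the report). With 1 sample left out the KO difference at day 0 ran from -0.67 to 0.11 for *Phf19*, from -0.28 to 0.05 for *Cbx2* and from 0.00 to 0.13 for *Suz12*. At day 3 it ran from -0.01 to 0.05 for *Ezh2*, from -0.19 to 0.21 for *Cbx2* and from -0.02 to 0.07 for *Suz12*. The change in WT ran from -0.04 to 0.10 for *Rnf2*, that in KO from -0.18 to 0.11 for *Cbx7*, and the interaction from -0.11 to 0.03 for *Suz12* and from -0.07 to 0.35 for *Cbx2*. The cause was not tested. Of 730 single-gene values 661 kept their direction and call, 23 lost a call, 19 gained one and 27 changed sign.

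With 3 samples a group, exact tests of the shares could not go below 0.1, and the spread of *Phf19* between replicates leaves its intervals wide. The deletion, the loss of *Upf3b* and the clone cannot be told apart.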
